A study of Mus musculus with 18 samples.

Results

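The solute carrier genes described here are 144 of the 23418 genes in a mouse leukemia RNA-seq table. They were chosen by name (Slc, a family number, the letter a and a member number) and by level, since each had to average at least 2 RPKM in at least 1 of the 6 groups of libraries. RPKM is the number of reads per kilobase of gene length, scaled to the size of the library. Of 331 genes with such a name, 157 reached the level and 13 of these were left out by name: Slc2a1, Slc2a3, Slc3a2, Slc6a9, Slc7a1, Slc7a5, Slc7a11, Slc11a1, Slc11a2, Slc16a3, Slc22a3, Slc38a2 and Slc40a1. The members nearest to the threshold were Slc9a7 at 2.02 RPKM in its highest group, Slc9a5 at 2.03 RPKM and Slc25a14 at 2.09 RPKM. Just outside it lay Slc27a2 at 1.96 RPKM, Slc5a6 at 1.95 RPKM and Slc7a2 at 1.74 RPKM. In all 6 groups the level was reached by 109 members. Another 12 members reached it in MI-2-2 groups only and 7 in DMSO groups only, so that the choice of members itself favours a difference in these 19. Of the genes described below, Slc6a8, Slc12a5, Slc15a3, Slc37a2, Slc37a3, Slc39a2, Slc41a3 and Slc9a7 came in through MI-2-2 groups only, and Slc7a4, Slc25a23 and Slc25a27 through DMSO groups only. The counts below are therefore also given for the 131 members whose mean over all 18 libraries was at least 2 RPKM.

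Solute carriers are membrane proteins that move nutrients, metals, ions, vitamins and metabolites across the plasma membrane and across the membranes of organelles, by facilitated diffusion or by coupling to another ion or solute. The families differ in cargo and place: SLC25 carriers sit mostly in the inner mitochondrial membrane, SLC35 carriers bring nucleotide sugars into the Golgi and the endoplasmic reticulum, and several members of the SLC15, SLC29, SLC36 and SLC38 families work in lysosomes. Blood cells change their set of carriers as they stop dividing and take on the tasks of phagocytes, among them digestion in lysosomes and the handling of iron and copper.

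The cells were leukemia cells of C57BL/6 mice, each transformed by 1 of 3 fusions of the MLL histone methyltransferase: MLL-AF9, MLL-AF6 or MLL-AF1p. For each construct, cells given 6 µM MI-2-2, a compound that blocks the binding of menin to MLL, were compared with cells given the solvent DMSO at 0.25%, both for 6 days with fresh compound on day 3. Each of the 6 groups had 3 libraries of polyadenylated RNA, and every group, DMSO included, carries a fusion, so no untransformed cells are part of the comparison. It is not stated whether the libraries of a group came from separate cultures or transformations, and p-values measure only the spread between these libraries.

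Counted reads ran from 21.18 to 56.3 M per library, with the 6 MLL-AF1p libraries the deepest, and the median member had 646.5 to 1672.5 reads in a library. Of the myeloid markers looked for, all 5 found in the table averaged over 1 RPKM in every group, and Csf1r, the receptor of macrophage colony-stimulating factor, averaged 80.6 RPKM with MI-2-2 and 1.6 RPKM with DMSO in MLL-AF9 cells, 54.2 and 2.83 RPKM in MLL-AF6 cells and 23.2 and 1.12 RPKM in MLL-AF1p cells. Elane, neutrophil elastase, averaged 1087 RPKM with MI-2-2 and 4916 RPKM with DMSO in MLL-AF9 cells, 917 and 2264 RPKM in MLL-AF6 cells and 2920.0 and 3748 RPKM in MLL-AF1p cells. The T cell marker Cd3e and the erythroid markers Hbb-b1 and Hba-a1 were listed at 0 in all 18 libraries. Other markers were not at 0. The basophil marker Mcpt8 averaged 6.55 RPKM with MI-2-2 and 15.1 RPKM with DMSO in MLL-AF9 cells. It averaged 5.82 and 19.1 RPKM in MLL-AF6 cells and 14.8 and 15.85 RPKM in MLL-AF1p cells. Group means ran from 1.14 to 3.57 RPKM for the megakaryocyte marker Pf4 and from 0.254 to 0.837 RPKM for the erythroid marker Klf1. These are bulk libraries, in which fewer cells of one kind and less RNA per cell cannot be told apart, and the part that the shift of myeloid markers has in the results below was not tested.

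Many solute carriers were called changed with MI-2-2 in each construct, in both directions, as were many of all genes tested. A member was called changed where limma, on log2(RPKM + 0.5) over all 11238 genes kept, gave a Benjamini-Hochberg adjusted p under 0.05. In MLL-AF9 cells 52 of 144 members (36.1%) were higher with MI-2-2, against 28.5% of all genes tested, and 36 (25%) were lower, against 27.9% of all genes. In MLL-AF6 cells 38 members (26.4%) were higher, against 18% of all genes, and 44 (30.6%) were lower, against 38.9%. In MLL-AF1p cells 34 members (23.6%) were higher, against 19.1% of all genes, and 29 (20.1%) were lower, against 26.3%. Among the 131 members with a mean of at least 2 RPKM the counts were 48 higher and 33 lower in MLL-AF9 cells, 34 and 41 in MLL-AF6 cells, and 32 and 27 in MLL-AF1p cells. Which direction held more calls in MLL-AF6 cells depended on the scaling: with each library centred on its median, 42 members were higher and 35 lower there.

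The median log2 fold change of the members, MI-2-2 over DMSO, was 0.11 in MLL-AF9 cells, -0.07 in MLL-AF6 cells and 0.02 in MLL-AF1p cells, beside medians over all genes of -0.00055, -0.16 and -0.06. In all 3 constructs 18 members (12.5%) were higher, against 8.64% of all genes, and 12 (8.33%) were lower, against 11.4%. No call was made in any construct for 20 members (13.9%), against 16% of all genes. A log2 fold change above 1 was found for 15 members (10.4%) in MLL-AF9 cells, against 6.91% of all genes, and one below -1 for 7 (4.86%), against 4.08%. In MLL-AF6 cells these were 15 (10.4%, against 6.01%) and 3 (2.08%, against 3.68%), and in MLL-AF1p cells 6 (4.17%, against 4.05%) and 2 (1.39%, against 2.8%). Among the 131 members with a mean of at least 2 RPKM, 18 (13.7%) were higher and 11 (8.4%) lower in all 3 constructs. Of these 131, 13 lay above 1 and 6 below -1 in MLL-AF9 cells, 14 and 3 in MLL-AF6 cells, and 6 and 2 in MLL-AF1p cells.

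**Figure D1:**
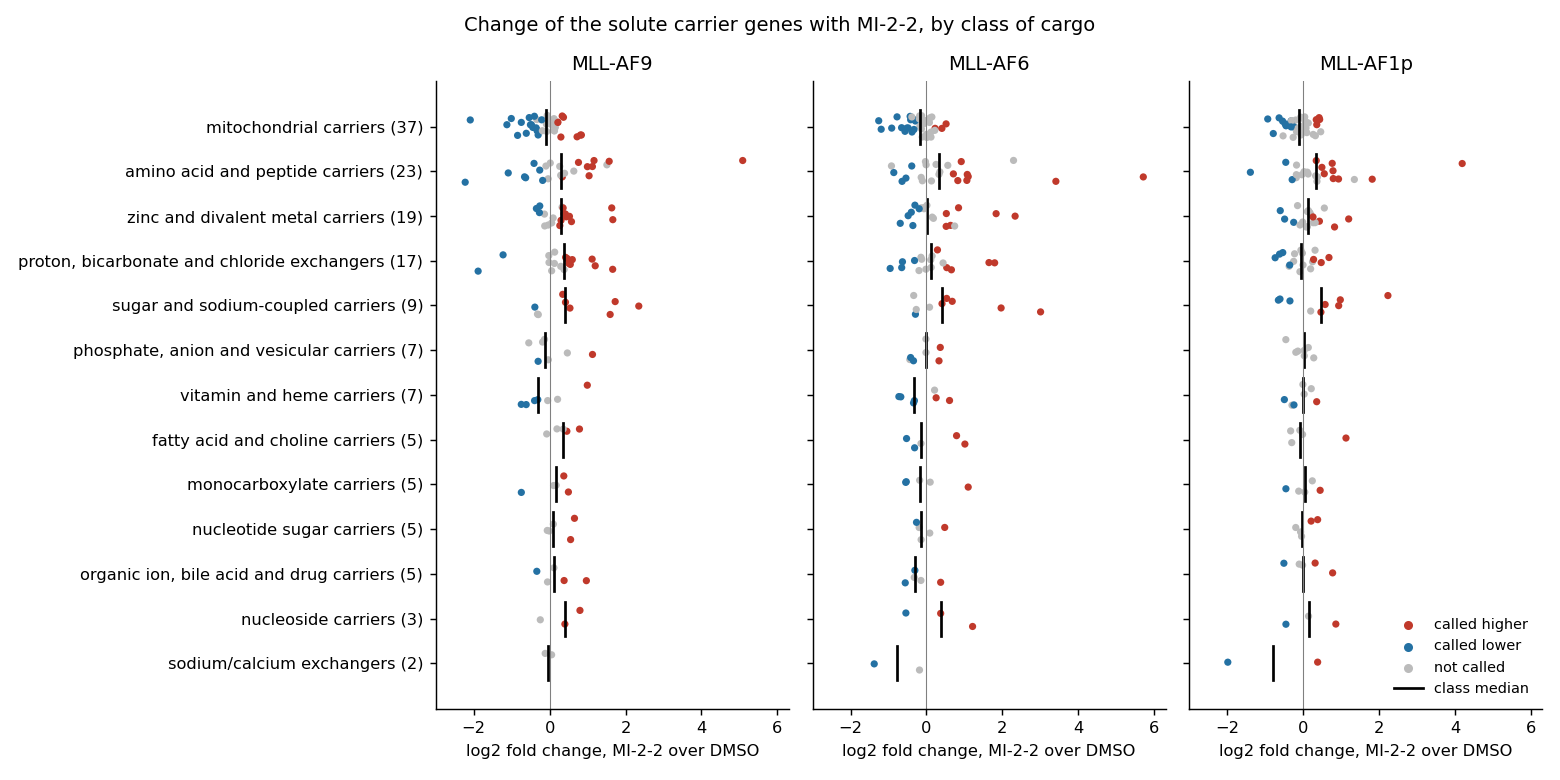
Log2 fold change with MI-2-2 over DMSO (x axis) of each of the 144 solute carrier genes, by class of cargo (y axis, with the number of genes) in MLL-AF9, MLL-AF6 and then MLL-AF1p cells. Each point is a gene, coloured by its limma call, and black bars are class medians; the mitochondrial carriers have medians of -0.09, -0.17 and -0.11, and the largest rise, that of Slc15a3, reaches 5.09, 5.71 and 4.19.

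By class, counts of calls are set beside the shares of all genes, which were 28.5% higher and 27.9% lower in MLL-AF9 cells, 18% and 38.9% in MLL-AF6 cells, and 19.1% and 26.3% in MLL-AF1p cells. The classes were chosen with earlier results of these data known, so the choice itself can favour shares unlike those of all genes. Of 23 amino acid and peptide carriers, 8 were higher (34.8%) and 7 lower (30.4%) with MI-2-2 in MLL-AF9 cells, 8 higher (34.8%) and 4 lower (17.4%) in MLL-AF6 cells, and 9 higher (39.1%) and 3 lower (13%) in MLL-AF1p cells. Of 9 sugar carriers, 6 were higher (66.7%) and 1 lower (11.1%) in MLL-AF9 cells, 5 higher (55.6%) and 1 lower (11.1%) in MLL-AF6 cells, and 5 higher (55.6%) and 3 lower (33.3%) in MLL-AF1p cells. Of 37 mitochondrial carriers, 8 were higher (21.6%) and 16 lower (43.2%) in MLL-AF9 cells, 3 (8.11%) and 14 (37.8%) in MLL-AF6 cells, and 4 (10.8%) and 10 (27%) in MLL-AF1p cells, so that in MLL-AF6 and MLL-AF1p cells the share of falls was near that of all genes. Of 14 members known from lysosomes and endosomes, 6 were higher (42.9%) and 2 lower (14.3%) in MLL-AF9 cells, 8 (57.1%) and 2 (14.3%) in MLL-AF6 cells, and 6 (42.9%) and 3 (21.4%) in MLL-AF1p cells.

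The highest levels belonged to mitochondrial carriers. Slc25a5, an exchanger of ADP for ATP, averaged 434 ± 15.4 RPKM with MI-2-2 and 374 ± 36.9 RPKM with DMSO in MLL-AF9 cells (SD, n = 3 each). It averaged 477 ± 15.9 and 501 ± 29.3 RPKM in MLL-AF6 cells and 509 ± 13.6 and 382 ± 19.2 RPKM in MLL-AF1p cells. Slc25a3, the phosphate carrier of mitochondria, lay between 219 and 260.3 RPKM in all 6 group means, and Slc25a4, a second ADP/ATP exchanger, between 97.2 and 171 RPKM. The next members were Slc1a5, a glutamine and neutral amino acid exchanger of the plasma membrane, and Slc48a1, a heme carrier of endosomes and lysosomes, each of which had group means between 80.8 and 163 RPKM. Slc25a5 was higher with MI-2-2 in MLL-AF1p cells by 0.42 ± 0.07 on the log2 scale (SE, limma adjusted p = 1.78e-04) and was called in MLL-AF9 cells at 0.22, a call lost after median centring (0.14, adjusted p = 0.117), after quantile normalization (adjusted p = 0.0856) and with these groups fitted alone (adjusted p = 0.0877). Slc25a3 was called in MLL-AF9 cells alone, at -0.21. Slc25a4 was called in MLL-AF6 cells alone, at 0.23, and lost that call after quantile normalization (adjusted p = 0.0527) and with the groups fitted alone (adjusted p = 0.0892). Slc1a5 and Slc48a1 are given below with their classes.

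Slc15a3, a proton-coupled carrier of histidine and small peptides in the membrane of lysosomes, showed the largest rise of all members in each construct. It had 20.1, 16 and 17.7 RPKM in the MI-2-2 libraries of MLL-AF9 cells, against 0.0957, 0 and 0.0292 RPKM in their DMSO libraries. In MLL-AF6 cells it had 39.4, 39.1 and 48.7 RPKM with MI-2-2 and 0.885, 0.195 and 0.0608 RPKM with DMSO, and in MLL-AF1p cells 16.1, 16 and 18.3 RPKM with MI-2-2 and 0.604, 0.433 and 0.33 RPKM with DMSO. Every MI-2-2 library lay far above every DMSO library of its construct. The DMSO values rest on few reads, 5, 0 and 2 in MLL-AF9 cells, 63, 13 and 4 in MLL-AF6 cells and 80, 50 and 38 in MLL-AF1p cells, so the fitted log2 fold changes of 5.09 ± 0.23, 5.71 ± 0.23 and 4.19 ± 0.23 (SE) depend on the 0.5 RPKM added before taking logs. Their limma adjusted p-values were 7.03e-11, 1.53e-11 and 1.67e-09. Slc15a3 is a member through MI-2-2 groups only, so the choice itself favours these differences. The kit does not mark strand, and in the GENCODE annotation of a later genome build 1541 exon bases of Slc15a3 also lie in Tmem132a on the opposite strand, whose mean was 1.83 RPKM with MI-2-2 and 0.0163 RPKM with DMSO in MLL-AF9 cells; reads of the shared stretch cannot be told apart. Slc15a4, the other lysosomal carrier of this kind among the members, was called higher in MLL-AF9 cells alone, with 13.6 ± 0.55 RPKM under MI-2-2 and 10.7 ± 0.874 RPKM under DMSO (SD, n = 3 each) and a log2 fold change of 0.33.

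**Figure D2:**
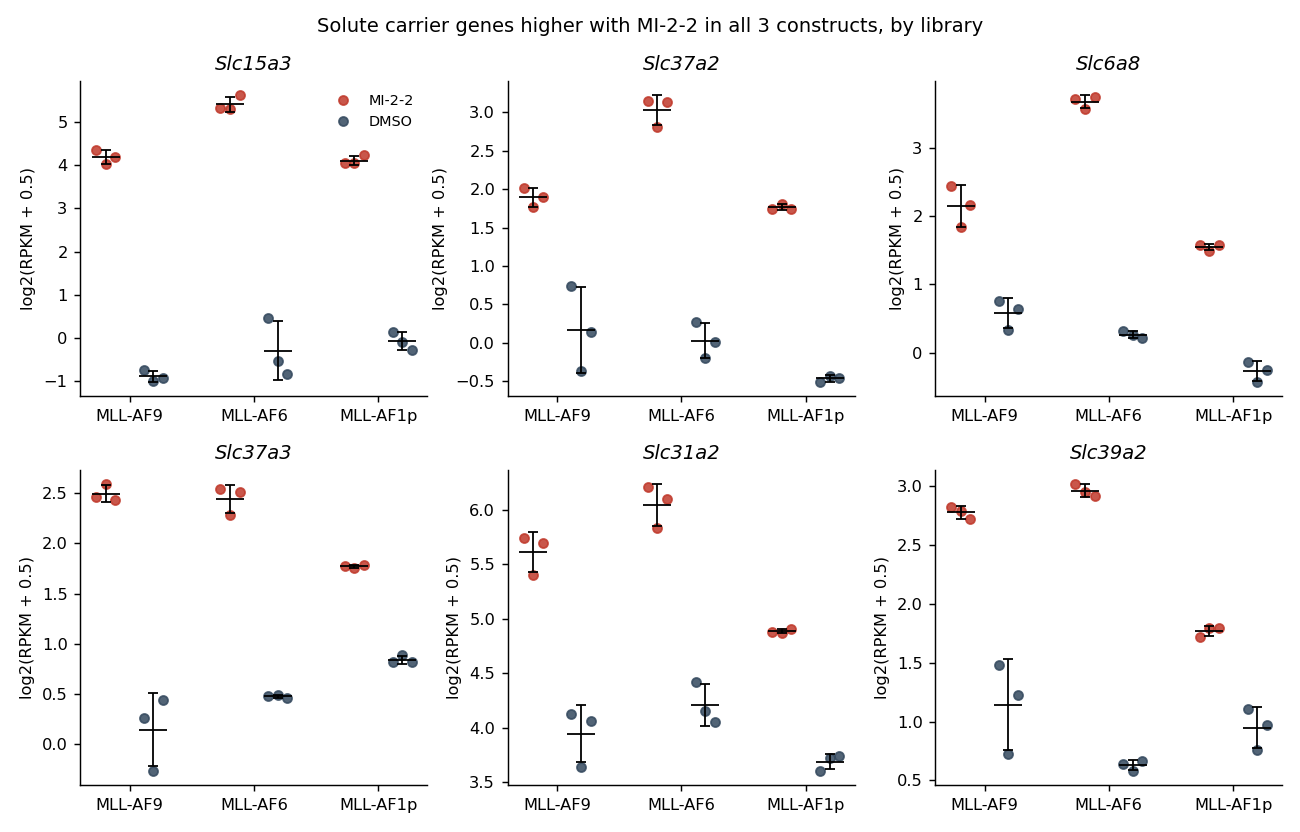
Level of 6 solute carrier genes as log2(RPKM + 0.5) (y axis) in the libraries of each construct (x axis), with MI-2-2 on the left and DMSO on the right of each pair. Points are libraries and bars the mean ± SD of 3. In each panel and construct all 3 MI-2-2 libraries lie above all 3 DMSO libraries, as for Slc31a2 in MLL-AF6 cells at a mean of 65.8 against 18.1 RPKM. All genes shown but Slc31a2 are members through MI-2-2 groups only, so the choice itself favours this gap for them.

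Slc6a8, the creatine carrier, also rose in all 3 constructs. Its levels were 12.6, 11.4 and 12.8 RPKM in the MI-2-2 libraries of MLL-AF6 cells, against 0.745, 0.698 and 0.662 RPKM in their DMSO libraries. In MLL-AF9 cells they were 4.94, 3.08 and 3.96 RPKM with MI-2-2 and 1.2, 0.756 and 1.06 RPKM with DMSO, and in MLL-AF1p cells 2.47, 2.3 and 2.47 RPKM with MI-2-2 and 0.409, 0.244 and 0.34 RPKM with DMSO. The groups did not overlap in any construct. Slc6a8 is likewise a member through MI-2-2 groups only, so its rise is partly what the choice required. The log2 fold change was 1.57 in MLL-AF9 cells, 3.41 in MLL-AF6 cells and 1.81 in MLL-AF1p cells (limma adjusted p = 1.13e-07, 1.22e-11 and 5.25e-08), and the effect in MLL-AF6 cells exceeded that in MLL-AF9 cells by 1.84 ± 0.19 and that in MLL-AF1p cells by 1.59 ± 0.19 (SE).

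Further amino acid carriers rose in all 3 constructs. Slc43a2, a carrier of large neutral amino acids, had 12.1, 14.8 and 12.7 RPKM in the MI-2-2 libraries of MLL-AF9 cells, against 5.79, 5.45 and 5.46 RPKM in their DMSO libraries. Slc7a8, which exchanges neutral amino acids together with a heavy chain subunit, had 21.9, 20.7 and 21.2 RPKM in the MI-2-2 libraries of MLL-AF9 cells, against 9.13, 9.8 and 11.5 RPKM in their DMSO libraries. Slc38a7, a lysosomal carrier known for exporting glutamine, had 26.3, 23 and 25.5 RPKM in the MI-2-2 libraries of MLL-AF6 cells, against 12.3, 10.7 and 11.1 RPKM in their DMSO libraries. None of these pairs of groups overlapped, nor did they in the other two constructs. Log2 fold changes for MLL-AF9, MLL-AF6 and then MLL-AF1p cells were 1.17, 1.06 and 0.93 for Slc43a2, 1.04, 1.07 and 0.55 for Slc7a8, and 1.13, 1.10 and 0.49 for Slc38a7, with limma adjusted p-values of at most 0.00301. The related Slc38a6 rose by 0.99, 0.92 and 0.34.

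Slc1a4, a carrier of alanine, serine, cysteine and other neutral amino acids, went the other way. It had 1.49, 2.08 and 1.38 RPKM in the MI-2-2 libraries of MLL-AF9 cells, against 4.89, 16.4 and 10.4 RPKM in their DMSO libraries, and the groups were well apart. In MLL-AF6 cells it had 1.88, 3.77 and 1.93 RPKM with MI-2-2 and 2.99, 7.22 and 5.76 RPKM with DMSO, with overlap, and in MLL-AF1p cells 1.85, 1.98 and 1.83 RPKM with MI-2-2 and 3.53, 9.88 and 5.41 RPKM with DMSO, without. DMSO library 2 was the highest of its group in each construct. The log2 fold change was -2.23 ± 0.40 in MLL-AF9 cells (limma adjusted p = 2.12e-04), -0.92 ± 0.40 in MLL-AF6 cells (adjusted p = 0.0601, not called) and -1.40 ± 0.40 in MLL-AF1p cells (adjusted p = 0.0101). Without DMSO library 2 of MLL-AF1p cells the last value became -1.03 and lost its call (adjusted p = 0.0608). With replicate number added to the fit, the fall of -0.92 in MLL-AF6 cells was called (limma adjusted p = 0.0038).

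Slc1a5 had 86.6, 87.7 and 85.7 RPKM in the MI-2-2 libraries of MLL-AF9 cells, against 108, 177 and 135 RPKM in their DMSO libraries. The MI-2-2 libraries all lay below, and the log2 fold change was -0.66 ± 0.15 (limma adjusted p = 0.0015). It was -0.54 in MLL-AF6 cells and -0.04 in MLL-AF1p cells, the last not called, with a 95% interval of -0.36 to 0.28. Slc7a4 fell in all 3 constructs, with log2 fold changes of -1.09, -0.64 and -0.46. In the later annotation 554 of its exon bases also lie in P2rx6 on the opposite strand, and reads of the shared stretch cannot be told apart. Slc7a6, an exchanger of basic for neutral amino acids, fell in MLL-AF9 (-0.41) and MLL-AF6 cells (-0.86). Slc38a9, which signals lysosomal arginine to the mTORC1 kinase, stayed within 2.11 to 2.72 RPKM over the 6 group means and was called in MLL-AF1p cells alone, at -0.29; that call was lost without any 1 of 4 libraries of the construct (adjusted p up to 0.129 without DMSO library 2).

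Some amino acid carriers varied widely between libraries of a group. Slc6a12, which carries betaine and GABA, had 25.6, 3.66 and 21.6 RPKM in the MI-2-2 libraries of MLL-AF9 cells, against 19.9, 1.18 and 2.52 RPKM in their DMSO libraries. In MLL-AF6 cells it had 18.1, 1.8 and 18.7 RPKM with MI-2-2 and 8.86, 0.123 and 0.694 RPKM with DMSO. Library 2 was the lowest of each of these 4 groups, and MI-2-2 and DMSO libraries overlapped in both constructs. In MLL-AF1p cells it was low, with 144, 88 and 142 reads with MI-2-2 and 8, 3 and 13 reads with DMSO, and the groups were apart. No MI-2-2 effect was called for it in the fit of all groups, which shares 1 spread among them (limma adjusted p = 0.321 in MLL-AF1p cells), while the MLL-AF1p groups fitted alone gave a call, with a log2 fold change of 1.34 (adjusted p = 1.78e-04). The 95% interval of the log2 fold change ran from -0.76 to 3.77 in MLL-AF9 cells. With replicate number added to the fit, MLL-AF6 cells gave a call, with a log2 fold change of 2.29 (limma adjusted p = 0.0114). Slc6a6, the taurine carrier, had 147, 107 and 135 RPKM in the MI-2-2 libraries of MLL-AF6 cells, against 109.9, 56.6 and 77.7 RPKM in their DMSO libraries, again with library 2 lowest in both groups. Its log2 fold changes were 0.64 (not called), 0.71 and 0.79. With replicate number added to the fit, the first was called (limma adjusted p = 0.00679). The call in MLL-AF6 cells was lost without any 1 of 13 libraries, with adjusted p-values of 0.0521 to 0.197. The call in MLL-AF1p cells was lost without any 1 of 5, with adjusted p-values of 0.0599 to 0.108. Slc36a1, a proton-coupled lysosomal exporter of small amino acids, was called higher in MLL-AF1p cells, at 25.9 ± 1.43 RPKM with MI-2-2 and 15.2 ± 2.56 RPKM with DMSO (SD, n = 3 each); its log2 fold change of 0.76 became 0.63 without DMSO library 2 (adjusted p = 0.0511).

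Among sugar carriers the largest rises were those of Slc37a3 in MLL-AF9 cells and of Slc37a2 in MLL-AF6 and MLL-AF1p cells, both of the SLC37 family of sugar-phosphate exchangers. Slc37a2, which is abundant in macrophages, had 8.39, 6.53 and 8.26 RPKM in the MI-2-2 libraries of MLL-AF6 cells, against 0.702, 0.375 and 0.505 RPKM in their DMSO libraries. In MLL-AF9 cells it had 3.54, 2.91 and 3.24 RPKM with MI-2-2 and 1.18, 0.273 and 0.599 RPKM with DMSO, and in MLL-AF1p cells 2.85, 3 and 2.85 RPKM with MI-2-2 and 0.203, 0.244 and 0.229 RPKM with DMSO. All MI-2-2 libraries were above all DMSO libraries of the same construct. Both Slc37a2 and Slc37a3 are members through MI-2-2 groups only, so the choice itself favours their rises. Log2 fold changes were 1.73, 3.01 and 2.23 in MLL-AF9, MLL-AF6 and then MLL-AF1p cells (limma adjusted p = 2.71e-06, 5.66e-09 and 3.61e-07). Slc37a3, which in human cells releases bisphosphonate drugs from lysosomes, had 5.02, 5.52 and 4.9 RPKM in the MI-2-2 libraries of MLL-AF9 cells, against 0.695, 0.335 and 0.86 RPKM in their DMSO libraries, with no overlap. It rose by 2.35, 1.97 and 0.93, and Slc37a1 by 0.53, 0.53 and 0.57. Slc37a4, which brings glucose 6-phosphate into the endoplasmic reticulum, was not called in MLL-AF9 or MLL-AF6 cells and was lower in MLL-AF1p cells, with a log2 fold change of -0.62 ± 0.18 (SE).

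Slc2a6, a hexose carrier of lysosomes, had 36.5, 20.4 and 32.6 RPKM in the MI-2-2 libraries of MLL-AF9 cells, against 12.8, 6.24 and 9.88 RPKM in their DMSO libraries, and the lowest MI-2-2 library was above the highest DMSO library. Its log2 fold change was 1.59 in MLL-AF9 cells (limma adjusted p = 3.62e-05), 0.68 in MLL-AF6 cells (adjusted p = 0.0236) and 0.97 in MLL-AF1p cells (adjusted p = 0.00356). The call in MLL-AF6 cells was lost without any 1 of 4 of that construct's libraries (MI-2-2 library 1 or 3, DMSO library 2 or 3; adjusted p of 0.0579 to 0.0877). Slc2a8, an intracellular hexose carrier, fell in all 3 constructs, with log2 fold changes of -0.39, -0.29 and -0.66; in MLL-AF6 cells its call was lost without MI-2-2 library 1 (adjusted p = 0.0558).

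Promoter sequences were read for members that rose in all 3 constructs, to show the letters upstream of genes that moved together. RefSeq sequences of the GRCm38.p6 build were found for 109 members, with 151 windows of the 250 bases before an annotated start. Each window was searched on both strands for the E-box CACGTG, for its longer form TCACGTGA, which is known from lysosomal genes and contains the E-box, for the AP-1 site TGACTCA, for the ETS-type site GAGGAAGT and for the ATF4-type site TTGCATCA. The E-box was in 22 of the 151 windows (14.6%), against 8.68% of 10593 windows of all genes kept and 6.02% of 32851 windows in the table. The longer form was in 3 (1.99%), against 1.58% and 0.785%. AP-1 sites were in 4 (2.65%), against 3.21% and 4.46%, ETS-type sites in 3 (1.99%), against 2.77% and 2.44%, and ATF4-type sites in 2 (1.32%), against 0.642% and 0.791%. These are matches of letters, not measured binding, and windows of 1 gene can overlap.

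The 4 windows below belong to genes higher in all 3 constructs and were picked because a motif was found: the AP-1 site for Slc37a2 at chr9:37255739-37255988 on the minus strand, the longer E-box for Slc37a3 at chr6:39377708-39377957 on the minus strand and for Slc35a5 at chr16:45158674-45158923 on the minus strand, and the E-box for Slc38a7 at chr8:95853492-95853741 on the minus strand. Capitals mark the matches, on either strand, and the last base stands just before the annotated start.
Slc37a2: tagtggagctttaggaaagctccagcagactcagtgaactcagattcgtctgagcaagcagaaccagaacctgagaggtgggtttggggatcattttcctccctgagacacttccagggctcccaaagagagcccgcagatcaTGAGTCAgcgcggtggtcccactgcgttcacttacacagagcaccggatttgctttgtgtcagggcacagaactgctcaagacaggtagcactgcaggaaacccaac
Slc37a3: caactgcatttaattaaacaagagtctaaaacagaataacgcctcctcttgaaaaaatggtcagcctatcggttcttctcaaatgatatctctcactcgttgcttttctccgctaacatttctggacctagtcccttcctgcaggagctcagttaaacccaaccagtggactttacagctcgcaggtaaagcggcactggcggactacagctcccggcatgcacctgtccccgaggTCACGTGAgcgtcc
Slc35a5: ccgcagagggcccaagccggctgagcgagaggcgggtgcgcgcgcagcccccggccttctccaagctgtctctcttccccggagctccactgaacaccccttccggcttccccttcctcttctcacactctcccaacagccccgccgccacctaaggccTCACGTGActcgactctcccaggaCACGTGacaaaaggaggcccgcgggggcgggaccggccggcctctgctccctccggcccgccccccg
Slc38a7: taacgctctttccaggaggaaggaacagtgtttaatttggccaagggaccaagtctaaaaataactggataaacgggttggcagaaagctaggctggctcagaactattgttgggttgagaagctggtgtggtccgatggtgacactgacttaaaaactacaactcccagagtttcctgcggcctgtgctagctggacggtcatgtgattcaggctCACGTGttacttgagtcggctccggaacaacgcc
Counted from the start, the first capital stands at -107 for Slc37a2, -14 for Slc37a3, -91 for Slc35a5 (with a second E-box at -67) and -34 for Slc38a7. Of the 16 windows of members higher in all 3 constructs, 3 hold the E-box (18.8%, against 8.68% of windows of all genes kept) and 2 its longer form (12.5%, against 1.58%). An AP-1 site is in 1 (6.25%, against 3.21%), an ETS-type site in 1 (6.25%, against 2.77%) and an ATF4-type site in none. Of the 9 windows of members lower in all 3 constructs none holds any of the 5 motifs in these 250 bases. With so few windows no difference between the sets can be read from these counts.

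Of 19 metal carriers, 10 were higher with MI-2-2 in MLL-AF9 cells (52.6%, against 28.5% of all genes) and 3 lower (15.8%, against 27.9%). In MLL-AF6 cells 6 were higher (31.6%, against 18%) and 6 lower (31.6%, against 38.9%), and in MLL-AF1p cells 4 (21.1%, against 19.1%) and 3 (15.8%, against 26.3%). Slc31a2, a low-affinity copper carrier of endosomes and lysosomes, had 52.8, 41.7 and 51.1 RPKM in the MI-2-2 libraries of MLL-AF9 cells, against 17, 12 and 16.2 RPKM in their DMSO libraries. In MLL-AF6 cells it had 73.1, 56.4 and 67.8 RPKM with MI-2-2 and 20.9, 17.3 and 16.1 RPKM with DMSO, and in MLL-AF1p cells 28.9, 28.8 and 29.5 RPKM with MI-2-2 and 11.7, 12.7 and 12.9 RPKM with DMSO. The groups were apart in each construct, with log2 fold changes of 1.66, 1.83 and 1.19 (limma adjusted p = 4.00e-08, 1.33e-08 and 3.11e-06). Slc31a1, the main copper importer of the plasma membrane, was called higher in MLL-AF9 and MLL-AF6 cells, by 0.44 and 0.63, and had 0.13 in MLL-AF1p cells.

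Slc39a2, a zinc importer, had 7.61, 7.26 and 7.06 RPKM in the MI-2-2 libraries of MLL-AF6 cells, against 1.06, 0.998 and 1.09 RPKM in their DMSO libraries. The groups did not overlap there or in the other constructs. Slc39a2, like Slc41a3 below, is a member through MI-2-2 groups only, so the choice itself favours a rise. Its log2 fold changes were 1.64, 2.33 and 0.82, and it shares 151 exon bases with Mettl17 on the same strand, for which no MI-2-2 effect was called (log2 fold changes of -0.16, -0.03 and -0.11). Slc39a1, another zinc importer, was higher in MLL-AF9 and MLL-AF6 cells, by 0.52 and 0.52. Slc41a3, a magnesium carrier of mitochondria, was higher by 0.58 and 0.84 in the same constructs, of which the call in MLL-AF9 cells was lost without MI-2-2 library 2 (adjusted p = 0.0585) or DMSO library 1 (log2 fold change 0.34, adjusted p = 0.0833). Falls in all 3 constructs were those of Slc30a9, a zinc carrier of mitochondria, at -0.26, -0.36 and -0.61, and of Slc41a1, a magnesium carrier of the plasma membrane, at -0.27, -0.40 and -0.49 on the log2 scale.

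Carriers of nucleosides, lipids and nucleotide sugars also held genes that rose in every construct. Slc29a3, the nucleoside carrier of lysosomes, had 19.8, 16.4 and 17.9 RPKM in the MI-2-2 libraries of MLL-AF6 cells, against 8.81, 7.21 and 6.56 RPKM in their DMSO libraries, without overlap, and rose by 0.80, 1.21 and 0.86 on the log2 scale (limma adjusted p at most 3.65e-05). Slc27a4, a fatty acid carrier with acyl-CoA synthetase activity, had 25.5, 25.2 and 27.3 RPKM in the MI-2-2 libraries of MLL-AF1p cells, against 11.8, 11.4 and 11.7 RPKM in their DMSO libraries. The groups were apart in all constructs, and the log2 fold changes were 0.79, 0.79 and 1.12. Slc35a5, a carrier of the nucleotide sugar family, rose by 0.65, 0.48 and 0.38. Slc22a15, of the organic ion family, rose by 0.97, 0.37 and 0.77, and in MLL-AF6 cells its call was lost without DMSO library 3 (0.28, adjusted p = 0.052). Slc27a1, a second fatty acid carrier, was higher in MLL-AF6 cells at 18.5 ± 4.85 RPKM with MI-2-2 and 8.81 ± 1.5 RPKM with DMSO (SD, n = 3 each), with 1.01 on the log2 scale, while its call of 0.45 in MLL-AF9 cells was lost without any 1 of 4 libraries (adjusted p of 0.0628 to 0.139). The nucleoside carrier of the plasma membrane Slc29a1 is given below with the genes whose direction differed.

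The mitochondrial carriers that fell in all 3 constructs carry different cargo. Slc25a37, which brings iron into mitochondria for heme synthesis, had 36, 24.5 and 34.2 RPKM in the MI-2-2 libraries of MLL-AF9 cells, against 64.6, 47.3 and 58.6 RPKM in their DMSO libraries. In MLL-AF6 cells it had 34.3, 29.5 and 38.5 RPKM with MI-2-2 and 76.9, 56.1 and 62.1 RPKM with DMSO, and in MLL-AF1p cells 29.7, 28.5 and 28.7 RPKM with MI-2-2 and 44.5, 47.9 and 43.8 RPKM with DMSO. Each MI-2-2 library lay below each DMSO library of its construct. The log2 fold changes were -0.84 ± 0.15, -0.92 ± 0.15 and -0.64 ± 0.15 (SE; limma adjusted p = 1.65e-04, 8.33e-05 and 0.00246). The related iron carrier Slc25a28 fell in MLL-AF9 (-0.36) and MLL-AF1p cells (-0.27) and had -0.17 in MLL-AF6 cells, not called.

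Slc25a27, a member of the uncoupling protein group, had 0.665, 0.811 and 0.651 RPKM in the MI-2-2 libraries of MLL-AF6 cells, against 2.51, 2.23 and 2.43 RPKM in their DMSO libraries. It fell without overlap in any construct, with log2 fold changes of -1.13, -1.26 and -0.94. Slc25a27 is a member through DMSO groups only, so the choice itself favours these falls. Slc25a42, a carrier of coenzyme A, fell with log2 fold changes of -0.54, -0.66 and -0.32. Slc25a23, a calcium-regulated exchanger of ATP-magnesium for phosphate, had 0.258, 0.261 and 0.336 RPKM in the MI-2-2 libraries of MLL-AF9 cells, against 3.16, 2.07 and 3.47 RPKM in their DMSO libraries. It is a member through that DMSO group alone, so its fall there is partly what the choice required. Its log2 fold changes were -2.09 in MLL-AF9 cells, -0.42 in MLL-AF6 cells and -0.79 in MLL-AF1p cells, the DMSO libraries of MLL-AF6 and MLL-AF1p cells averaged 0.597 and 0.706 RPKM, and the call in MLL-AF6 cells was lost without any 1 of 4 libraries (adjusted p of 0.0561 to 0.161). Slc25a29, a carrier of basic amino acids, had 3.1, 2.52 and 3.15 RPKM in the MI-2-2 libraries of MLL-AF6 cells, against 9.99, 5.77 and 6.73 RPKM in their DMSO libraries. It fell in MLL-AF9 (-1.01) and MLL-AF6 cells (-1.19), while in MLL-AF1p cells the log2 fold change was 0.06, with a 95% interval of -0.24 to 0.37. Rises in this class were fewer: Slc25a24, an ATP-magnesium carrier, was higher by 0.84 in MLL-AF9 and 0.41 in MLL-AF6 cells, and Slc25a45 by 0.72 in MLL-AF9 and 0.35 in MLL-AF1p cells.

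**Figure D3:**
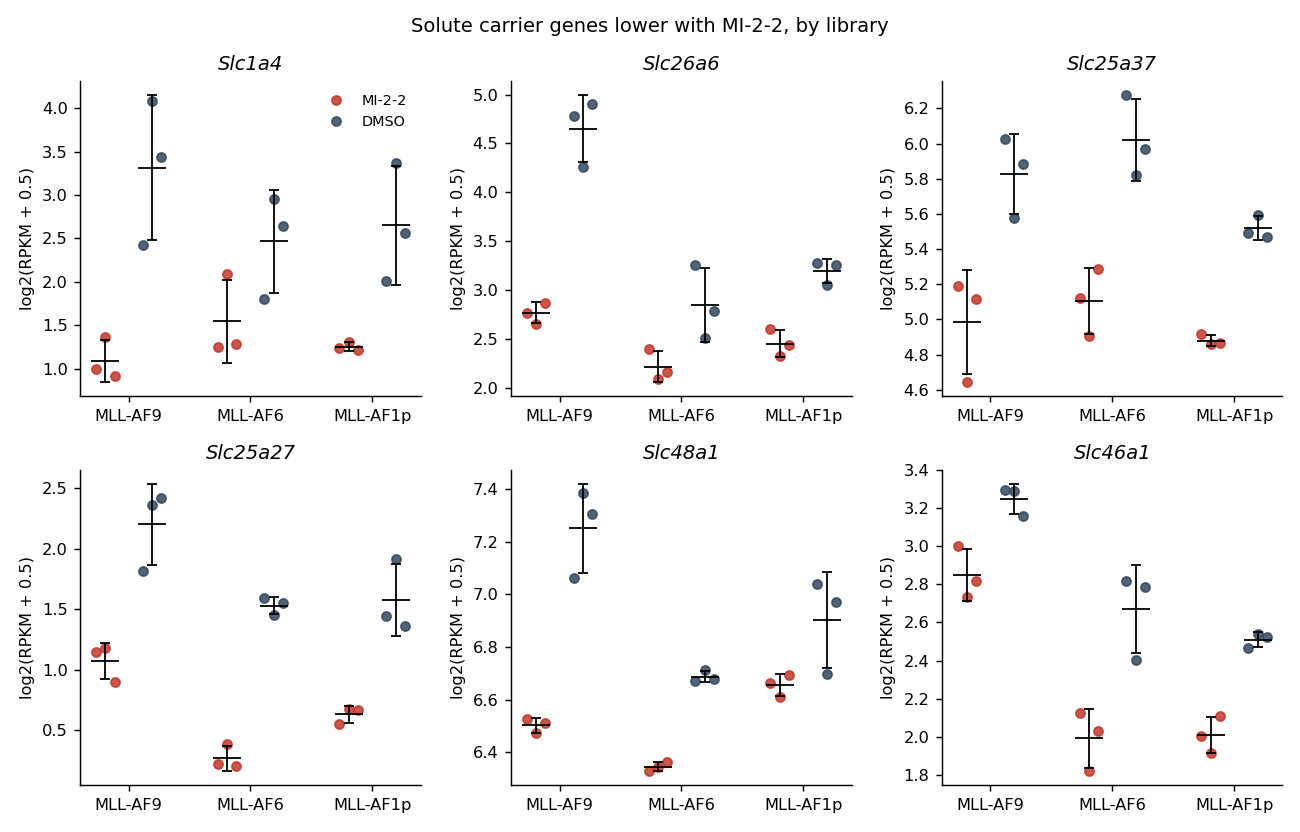
Level of 6 solute carrier genes as log2(RPKM + 0.5) (y axis) in the libraries of each construct (x axis), with MI-2-2 on the left and DMSO on the right of each pair. Points are libraries and bars the mean ± SD of 3; Slc26a6 in MLL-AF9 cells shows a wide gap, at a mean of 6.31 against 25.1 RPKM, while the Slc1a4 groups overlap in MLL-AF6 cells.

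Of 7 vitamin and heme carriers, 1 was higher (14.3%, against 28.5% of all genes) and 4 lower (57.1%, against 27.9%) with MI-2-2 in MLL-AF9 cells. In MLL-AF6 cells 2 were higher (28.6%, against 18%) and 4 lower (57.1%, against 38.9%), and in MLL-AF1p cells 1 (14.3%, against 19.1%) and 2 (28.6%, against 26.3%). Slc48a1, which moves heme out of endosomes and lysosomes, had 91.6, 88.2 and 90.8 RPKM in the MI-2-2 libraries of MLL-AF9 cells, against 133, 167 and 158 RPKM in their DMSO libraries, with all MI-2-2 libraries lower. Its log2 fold changes were -0.75 ± 0.08, -0.34 ± 0.08 and -0.25 ± 0.08 (SE; limma adjusted p = 1.83e-06, 0.00266 and 0.0248), and the last lost its call without any 1 of 4 MLL-AF1p libraries (adjusted p of 0.0561 to 0.117). Slc46a1, a proton-coupled carrier of folate, had 3.86, 3.04 and 3.59 RPKM in the MI-2-2 libraries of MLL-AF6 cells, against 6.55, 4.79 and 6.4 RPKM in their DMSO libraries, again without overlap. It fell with log2 fold changes of -0.40, -0.68 and -0.50. Slc19a1, the reduced folate carrier, had 6.73, 6.46 and 6.36 RPKM in the MI-2-2 libraries of MLL-AF9 cells, against 7.9, 13.9 and 9.84 RPKM in their DMSO libraries, with DMSO library 2 the highest. It fell in MLL-AF9 (-0.62) and MLL-AF6 cells (-0.73); in MLL-AF9 cells its value was -0.41 without DMSO library 2 (adjusted p = 0.068). Slc23a2, a carrier of vitamin C, was higher in MLL-AF9 cells by 0.99, at 16.8 ± 2.13 RPKM with MI-2-2 and 8.29 ± 1.73 RPKM with DMSO (SD, n = 3 each), and was not called elsewhere.

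Of the 17 exchangers of protons, bicarbonate and chloride, 8 were higher (47.1%, against 28.5% of all genes) and 2 lower (11.8%, against 27.9%) with MI-2-2 in MLL-AF9 cells. In MLL-AF6 cells 5 were higher (29.4%, against 18%) and 4 lower (23.5%, against 38.9%), and in MLL-AF1p cells 3 (17.6%, against 19.1%) and 4 (23.5%, against 26.3%). Slc26a6, an exchanger of chloride for bicarbonate, oxalate and other anions, had 6.32, 5.81 and 6.82 RPKM in the MI-2-2 libraries of MLL-AF9 cells, against 27, 18.7 and 29.5 RPKM in their DMSO libraries. The groups were far apart there and did not overlap in the other constructs, and the log2 fold changes were -1.88, -0.63 and -0.74 (limma adjusted p = 2.58e-07, 0.00635 and 0.00292). Slc9a9, a sodium/proton exchanger of endosomes, had 2.49, 3.22 and 2.8 RPKM in the MI-2-2 libraries of MLL-AF9 cells, against 7.86, 6.34 and 7.73 RPKM in their DMSO libraries. It fell with log2 fold changes of -1.23, -0.65 and -0.63, without overlap.

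Single carriers of lactate and phosphate changed in some constructs. Slc16a1, a plasma membrane carrier of lactate and pyruvate, had 14.3, 13.7 and 13.4 RPKM in the MI-2-2 libraries of MLL-AF9 cells, against 27.9, 21 and 22 RPKM in their DMSO libraries, with no overlap. It fell in MLL-AF9 (-0.75) and MLL-AF6 cells (-0.53), and had -0.12 in MLL-AF1p cells, not called, with a 95% interval of -0.35 to 0.10. Slc20a1, a sodium-coupled phosphate importer, had 24.1, 19.8 and 22.5 RPKM in the MI-2-2 libraries of MLL-AF9 cells, against 9.67, 9.91 and 9.85 RPKM in their DMSO libraries. It rose by 1.13 in MLL-AF9 and 0.36 in MLL-AF6 cells.

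The size of the MI-2-2 effect differed between constructs for 62 of 144 members (43.1%) by limma's F test of the differences, against 52.8% of all genes. Pair by pair, the effect in MLL-AF9 cells was above that in MLL-AF6 cells for 29 members (20.1%, against 24% of all genes) and below it for 11 (7.64%, against 9.02%). It was above that in MLL-AF1p cells for 26 (18.1%, against 21.4%) and below it for 14 (9.72%, against 13.6%), and MLL-AF6 stood above MLL-AF1p cells for 23 (16%, against 11.6%) and below for 16 (11.1%, against 19.5%). The widest ranges of log2 fold change were those of Slc12a5, Slc24a5, Slc6a8, Slc9a7, Slc25a23 and Slc15a3; that of Slc9a7 includes an MLL-AF9 value fitted on almost no reads. Slc12a5, a potassium-chloride cotransporter best known from neurons, had 1.97, 2.88 and 2.48 RPKM in the MI-2-2 libraries of MLL-AF9 cells, against 0.365, 0.451 and 0.455 RPKM in their DMSO libraries. In MLL-AF6 cells it had 0.318, 0.339 and 0.4 RPKM with MI-2-2 and 0.475, 0.409 and 0.444 RPKM with DMSO, and in MLL-AF1p cells 0.41, 0.43 and 0.427 RPKM with MI-2-2 and 0.611, 0.681 and 0.517 RPKM with DMSO. The MI-2-2 libraries were the higher ones in MLL-AF9 cells and lay below the DMSO libraries in the others, with log2 fold changes of 1.66, -0.15 and -0.26. Neither fall was called in the main fit. Quantile normalization gave calls for both falls (limma adjusted p = 0.032 in MLL-AF6 and 0.00668 in MLL-AF1p cells). The fall in MLL-AF1p cells was also called by limma with a pseudocount of 0.1 (adjusted p = 0.0362) and with a constant prior (0.0374). It was called as well with voom on the recovered reads (0.0186) and with its groups fitted alone (0.0248). Slc12a5 is a member through the MI-2-2 group of MLL-AF9 cells alone, so these values describe what the choice picked out.

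Slc9a7, a sodium/proton exchanger of the trans-Golgi network, had 2.71, 1.68 and 1.65 RPKM in the MI-2-2 libraries of MLL-AF6 cells, against 0.412, 0.128 and 0.13 RPKM in their DMSO libraries. In MLL-AF9 cells it had at most 1 read in a library, so no fold change is given there. In MLL-AF1p cells it had 20, 31 and 28 reads with MI-2-2 and 0, 0 and 3 reads with DMSO. The rise in MLL-AF6 cells was 1.80 on the log2(RPKM + 0.5) scale. Slc9a7 is a member through that group alone, so this difference is partly what the choice required.

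Slc24a5, a potassium-dependent sodium/calcium exchanger known from pigment granules, had 6.75, 4.97 and 4.52 RPKM in the MI-2-2 libraries of MLL-AF6 cells, against 14.8, 13 and 16.4 RPKM in their DMSO libraries. In MLL-AF1p cells it had 0.781, 0.644 and 0.735 RPKM with MI-2-2 and 4.95, 3.95 and 4.17 RPKM with DMSO, and in MLL-AF9 cells 0.407, 0.592 and 0.674 RPKM with MI-2-2 and 0.666, 0.488 and 0.79 RPKM with DMSO. The MI-2-2 libraries were the lower ones in MLL-AF6 and MLL-AF1p cells, with log2 fold changes of -1.38 ± 0.15 and -1.99 ± 0.15 (SE; limma adjusted p = 1.17e-06 and 3.88e-08), while the groups overlapped at a low level in MLL-AF9 cells. In the later annotation 921 of its exon bases lie in Myef2 on the opposite strand, which averaged 1.68 RPKM with MI-2-2 and 3.57 RPKM with DMSO in MLL-AF6 cells and 2.26 and 2.81 RPKM in MLL-AF9 cells; reads of the shared stretch cannot be told apart.

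For 9 members (6.25%, against 8.14% of all genes) the call went in opposite directions in different constructs, among them Slc10a3, Slc25a12, Slc25a22, Slc29a1, Slc35a4, Slc39a6, Slc39a7 and Slc39a9. All these changes were below 1 on the log2 scale. Slc29a1, the main nucleoside carrier of the plasma membrane, had 11.5, 10.9 and 12 RPKM in the MI-2-2 libraries of MLL-AF9 cells, against 7.49, 9.78 and 8.61 RPKM in their DMSO libraries. In MLL-AF1p cells it had 6.21, 5.82 and 5.9 RPKM with MI-2-2 and 8.64, 8.14 and 8.42 RPKM with DMSO. The MI-2-2 libraries lay above the DMSO libraries in MLL-AF9 cells and below them in MLL-AF1p cells, with log2 fold changes of 0.40, 0.37 and -0.46 in MLL-AF9, MLL-AF6 and then MLL-AF1p cells.

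Slc39a6, a zinc importer of the plasma membrane, had 19.3, 17.1 and 18.8 RPKM in the MI-2-2 libraries of MLL-AF6 cells, against 32.4, 29.3 and 28.4 RPKM in their DMSO libraries, and fell there with a log2 fold change of -0.69 ± 0.12 (SE). Its rise of 0.38 in MLL-AF9 cells came with overlapping groups and lost its call without MI-2-2 library 1 (adjusted p = 0.0662) or DMSO library 2 (0.24, adjusted p = 0.0698). Slc25a12, the aspartate-glutamate exchanger of mitochondria, had log2 fold changes of 0.21, -0.57 and 0.09 in MLL-AF9, MLL-AF6 and then MLL-AF1p cells, where the rise in MLL-AF9 cells became 0.13 without MI-2-2 library 2 (adjusted p = 0.154). Slc25a22, a mitochondrial glutamate carrier, had 0.12, -0.38 and 0.43. Slc39a7, which releases zinc from the endoplasmic reticulum, had -0.35, -0.30 and 0.25, and Slc10a3, a family member without a known cargo, 0.38, -0.31 and 0.31. The rise of Slc35a4 in MLL-AF1p cells (0.21) and the fall of Slc39a9 in MLL-AF6 cells (-0.19) lost their calls without single libraries, with adjusted p-values up to 0.114 and 0.131. In the later annotation Slc39a9 shares 459 exon bases with Erh on the opposite strand, which averaged 152 RPKM with DMSO in MLL-AF6 cells. Erh had log2 fold changes of -0.40, -0.35 and 0.21. Slc35a4 shares 152 with Apbb3 on the opposite strand (0.01, -0.40 and 0.02), and Slc10a3 shares 258 with Ubl4a on the same strand. Slc39a7 shares 2084 with the processed transcript Gm20427 on the same strand, and Slc29a1 shares 275 with the antisense gene Gm17080. Reads of shared stretches cannot be told apart.

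**Figure D4:**
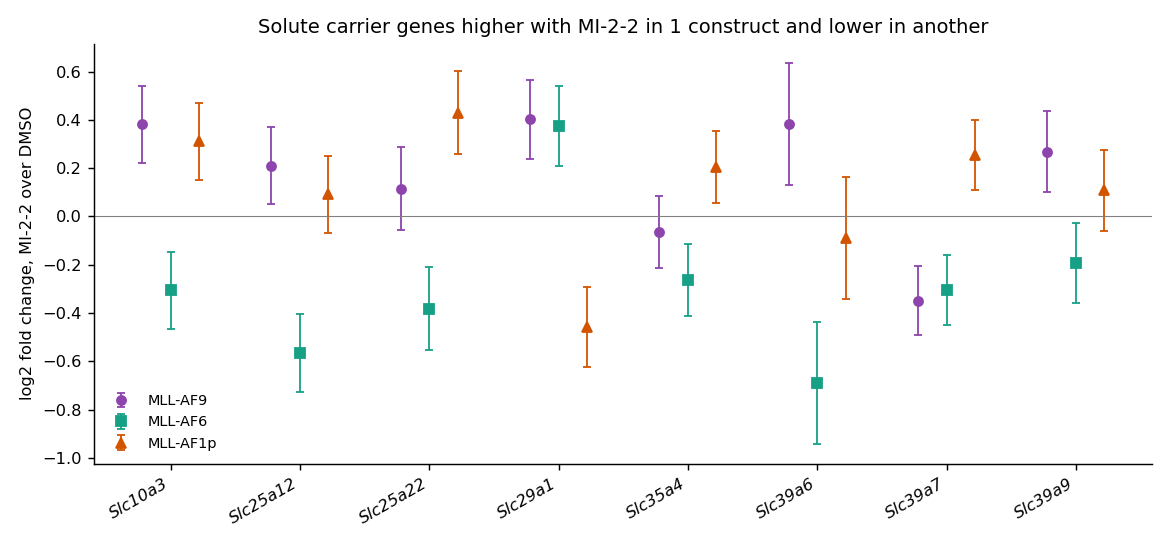
Log2 fold change with MI-2-2 over DMSO (y axis) of 8 of the 9 solute carrier genes (x axis) called higher in 1 construct and lower in another, by construct. Points are limma estimates and bars their 95% confidence intervals; for Slc29a1 the MLL-AF9 and MLL-AF6 intervals lie above 0 and the MLL-AF1p interval, -0.62 to -0.29, below it.

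Under DMSO alone the constructs differed in many carriers. Between MLL-AF9 and MLL-AF6 cells 34 members (23.6%) were higher in MLL-AF9 cells, against 24.5% of all genes, and 35 (24.3%) lower, against 29.1%. Against MLL-AF1p cells, 49 (34%) were higher in MLL-AF9 cells, beside 28.6% of all genes, and 32 (22.2%) lower, beside 36.5%. Between MLL-AF6 and MLL-AF1p cells 44 (30.6%) were higher in MLL-AF6 cells, against 23.7% of all genes, and 22 (15.3%) lower, against 28.8%. Which construct a cell carries cannot be told apart from the history of its line, since the labels do not say how many independent lines each construct stands for.

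Slc15a2, a proton-coupled peptide importer, had 7.45, 2.43 and 5.33 RPKM in the DMSO libraries of MLL-AF9 cells, against 0.0194, 0 and 0.00699 RPKM in those of MLL-AF6 cells and 0.44, 0.322 and 0.383 RPKM in those of MLL-AF1p cells. MLL-AF6 cells had at most 3 reads of it in a library. Slc6a13, a carrier of GABA and taurine, had 25.6, 15.7 and 17.8 RPKM in MLL-AF9 cells, against 5.3, 2.97 and 3.24 RPKM in MLL-AF6 cells and 3.2, 2.71 and 2.74 RPKM in MLL-AF1p cells. Slc12a7, a potassium-chloride cotransporter, was likewise highest in MLL-AF9 cells, at 4.3 ± 0.534 RPKM, against 0.713 ± 0.146 RPKM in MLL-AF6 and 0.604 ± 0.0665 RPKM in MLL-AF1p cells (SD, n = 3 each). With MI-2-2 it averaged 3.32 RPKM in MLL-AF6 cells, a rise of 1.65 on the log2 scale, and it rose by 0.68 in MLL-AF1p cells.

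Slc24a5, Slc32a1, Slc39a6 and Slc16a7 were lowest in MLL-AF9 cells. Slc32a1, the vesicular carrier of GABA and glycine, had 7.25, 4.04 and 5.03 RPKM in the DMSO libraries of MLL-AF9 cells, against 43, 20.7 and 31.7 RPKM in MLL-AF6 cells and 18.5, 12.6 and 15.8 RPKM in MLL-AF1p cells. The log2 difference was -2.42 ± 0.26 between MLL-AF9 and MLL-AF6 cells and -1.46 ± 0.26 between MLL-AF9 and MLL-AF1p cells (SE; limma adjusted p = 1.78e-06 and 1.79e-04). No MI-2-2 effect on it was called in the fit of all groups, and its means with MI-2-2 were 3.59, 30.5 and 15.7 RPKM in the same order of constructs. With replicate number added to the fit, MLL-AF9 cells gave a call, at -0.55 (limma adjusted p = 0.00398). Slc16a7, a second carrier of lactate and pyruvate, had 0.26, 0.244 and 0.355 RPKM in MLL-AF9 cells, against 2.13, 2.11 and 1.76 RPKM in MLL-AF6 cells and 2.58, 3.03 and 2.4 RPKM in MLL-AF1p cells. It was higher with MI-2-2 in MLL-AF6 cells by 1.10. The Slc6a12 difference between MLL-AF9 and MLL-AF1p cells, 3.07, fell to 2.01 and lost its call without DMSO library 1 of MLL-AF9 cells (adjusted p = 0.108).

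**Figure D5:**
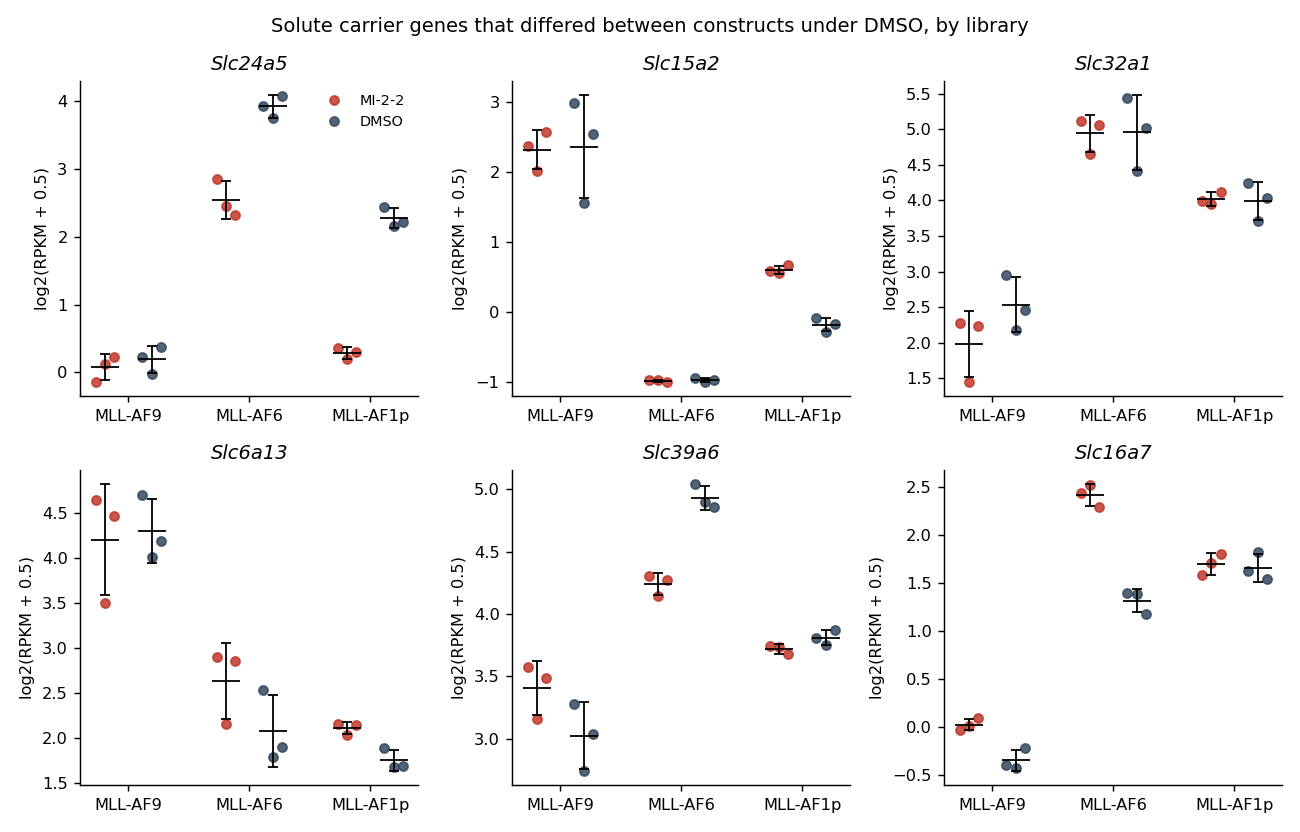
Level of 6 solute carrier genes as log2(RPKM + 0.5) (y axis) in the libraries of each construct (x axis), with MI-2-2 on the left and DMSO on the right of each pair. Points are libraries and bars the mean ± SD of 3; Slc15a2 and Slc6a13 are highest in MLL-AF9 cells, and Slc32a1 is lowest there with 7.25, 4.04 and 5.03 RPKM under DMSO.

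Genes of the same pathways that the naming rule does not reach were looked at from 3 lists. The lists were chosen with earlier results of these data known, so the choice itself can favour shares unlike those of all genes. Of 18 tested genes of amino acid signalling at the lysosome, 13 were higher (72.2%, against 28.5% of all genes) and 3 lower (16.7%, against 27.9%) with MI-2-2 in MLL-AF9 cells. In MLL-AF6 cells 10 were higher (55.6%, against 18%) and 1 lower (5.56%, against 38.9%), and in MLL-AF1p cells 8 (44.4%, against 19.1%) and 1 (5.56%, against 26.3%), with median log2 fold changes of 0.47, 0.23 and 0.18. Fnip2, a partner of folliculin, averaged 28.5 ± 0.845 RPKM with MI-2-2 and 3.33 ± 0.852 RPKM with DMSO in MLL-AF9 cells (SD, n = 3 each), and rose by 2.95, 2.55 and 2.14 on the log2 scale in MLL-AF9, MLL-AF6 and then MLL-AF1p cells. Rragd, a GTPase that recruits mTORC1 to lysosomes, averaged 0.441 ± 0.0926 RPKM with MI-2-2 and 0.132 ± 0.0519 RPKM with DMSO in MLL-AF9 cells, with log2 fold changes of 0.57, 1.88 and 0.73. In MLL-AF6 cells Rragd averaged 1.63 RPKM with MI-2-2 and 0.0752 RPKM with DMSO. Only the MI-2-2 libraries of MLL-AF6 cells reached 1 RPKM, the level a gene needed to be kept, so the filter itself favours that rise. Its other group means were low. Sesn1, a sestrin that restrains mTORC1, went the other way, at 5.85 ± 0.236 RPKM with MI-2-2 and 10.6 ± 1.39 RPKM with DMSO in MLL-AF9 cells, and fell with log2 fold changes of -0.80, -1.19 and -0.70. Of 15 tested carriers and partner subunits that go by other names, 7 were higher (46.7%) and 4 lower (26.7%) in MLL-AF9 cells, 6 (40%) and 2 (13.3%) in MLL-AF6 cells, and 4 (26.7%) and 2 (13.3%) in MLL-AF1p cells. Among them Ctns, the cystine exporter of lysosomes, had log2 fold changes of 0.81, 0.83 and 0.70, and Emb, a glycoprotein that escorts lactate carriers, -1.22, -0.54 and -0.52. Of 14 tested SLC35 genes with a letter other than a, 6 were higher (42.9%) and 1 lower (7.14%) in MLL-AF9 cells, 2 (14.3%) and 3 (21.4%) in MLL-AF6 cells, and 4 (28.6%) and 2 (14.3%) in MLL-AF1p cells, and Slc35f6 had 1.40, 1.79 and 1.03.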

How the data were processed

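RNA was measured in 18 libraries, 3 for each of 6 groups, on an unstranded polyA kit. The RPKM values were deposited by the authors in one table with gene lengths, as its header shows. The tools on record are HTSeq, CASAVA 1.8.2, edgeR and Bowtie2 2.0.0.7, with mm9 as the genome, per the submitters' processing notes, which give no role for any of them. RPKM times length was a whole multiple of 1 step per library for 100% of values (tolerance 0.05), which gave the reads per gene.

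Genes with at least 1 RPKM in at least 3 libraries were kept, 11238 in all and all 144 members among them. log2(RPKM + 0.5) was fitted with limma 3.58.1 in R 4.3.3 (6 group means, trended prior, 12 residual degrees of freedom), with Benjamini-Hochberg adjustment over all genes kept and calls at adjusted p under 0.05; the fit was tested on simulated data. A fold change on this scale understates changes of low genes. Named genes were the largest changes per construct and per class, the largest differences between constructs, the highest levels and genes fixed by interest; Slc7a4, Slc15a4, Slc23a2, Slc25a12, Slc25a24, Slc25a28, Slc25a42, Slc25a45, Slc31a1, Slc37a1, Slc38a6, Slc39a1, Slc39a7, Slc39a9 and Slc41a1 were named after their values were seen. Some genes are not reported here. Members, classes and lists were chosen with earlier results of these data known. Replicate numbers were checked for pairing: 5 of 9 same-number pairs within a construct correlated above 0.1, and 33 of 45 over all groups. The labels do not say what the numbers stand for, and the main fit did not use them as pairs. Symbols were current for 143 members; 46 members share at least 50 exon bases with another gene in GENCODE (GRCm38), so no positions of genes in the authors' build are given. Python 3.11.15 and matplotlib 3.10.9 drew the plots.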

Additional observations from a re-analysis of the deposited data

Results flagged for a closer look

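The MI-2-2 effect differed between constructs for 11 solute carrier genes: 3 with the largest range of effects and 8 of those with calls in opposite directions. The test was limma's test of the difference itself, with Benjamini-Hochberg adjustment over all genes. These 11 were picked from the same values, through the F test and the range or through opposite calls. The differences therefore describe what was picked and are no independent evidence. By the F test 62 of 144 members (43.1%) differed, against 52.8% of all genes. Another 3 with a large range, Slc12a5, Slc9a7 and Slc25a23, are members through 1 group alone, so the choice used their difference and none is tested here. Differences are given on the log2(RPKM + 0.5) scale as the effect in the construct named first minus that in the other, and no cause was tested.

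For MLL-AF9 minus MLL-AF6 the differences were 1.26 for Slc24a5, 1.07 for Slc39a6, 0.78 for Slc25a12, 0.69 for Slc10a3, 0.50 for Slc25a22 and 0.46 for Slc39a9. The difference was negative for Slc6a8 (-1.84).

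For MLL-AF9 minus MLL-AF1p they were 1.87 for Slc24a5, 0.90 for Slc15a3, 0.86 for Slc29a1 and 0.47 for Slc39a6. Negative values were those of Slc39a7 (-0.60), Slc25a22 (-0.32) and Slc35a4 (-0.27).

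For MLL-AF6 minus MLL-AF1p they were 1.59 for Slc6a8, 1.53 for Slc15a3, 0.83 for Slc29a1 and 0.61 for Slc24a5. Negative values were those of Slc25a22 (-0.81), Slc25a12 (-0.66), Slc10a3 (-0.62), Slc39a6 (-0.60), Slc39a7 (-0.56) and Slc35a4 (-0.47).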

How the results depend on the processing

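Under 8 other settings (pseudocount 0.1, median centring, no filter on low values, a replicate block, quantile normalization, a constant prior, voom on the recovered reads, and groups fitted alone) the counts of members stayed within 1.5 times, except that MLL-AF9 and MLL-AF6 DMSO groups fitted alone gave 19 members higher and 20 lower in MLL-AF9 cells. Groups fitted alone leave fewer residual degrees of freedom. For MI-2-2 such fits gave 41 members higher and 26 lower in MLL-AF9 cells, against 52 and 36 in the main fit. In MLL-AF6 cells they gave 37 and 40, against 38 and 44, and in MLL-AF1p cells 48 and 42, against 34 and 29. Why these fits differed was not tested. For 71 named members and their 237 tests, each repeated under the 8 settings, 1818 outcomes stayed as they were, called or not called. In 44 a call ended and in 34 one was added, and no called direction turned. After median centring or quantile normalization, MI-2-2 calls ended in MLL-AF9 cells for Slc16a7, Slc25a5, Slc25a12 and Slc27a1. In MLL-AF6 cells they ended for Slc2a8, Slc6a6, Slc25a4, Slc25a23, Slc35a4 and Slc39a9, among others. In MLL-AF1p cells they ended for Slc9a7, Slc25a14, Slc38a9 and Slc48a1.

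Leaving out libraries, 1 at a time or, as chosen after seeing the data, all those of 1 replicate number, gave these ranges. Members higher with MI-2-2 were 31 to 54 in MLL-AF9, 20 to 42 in MLL-AF6 and 15 to 39 in MLL-AF1p cells, and members lower 14 to 37, 22 to 50 and 10 to 34. Members whose effect differed between constructs were 17 to 78. Under DMSO, 16 to 39 were higher and 20 to 43 lower in MLL-AF9 than MLL-AF6 cells, 22 to 54 and 21 to 35 in MLL-AF9 than MLL-AF1p cells, and 17 to 54 and 3 to 28 in MLL-AF6 than MLL-AF1p cells. The lowest value of each range came without all libraries numbered 3, where 83 calls were made on named members for MI-2-2, against 143 with all libraries and 134 to 147 with 1 library left out; leaving out all libraries numbered 1 or all numbered 2 kept every count within 1.5 times. The cause was not tested.

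Replicate numbers are shared between groups. Within constructs the pairing check found correlations of 0.00079 to 0.557, above 0.1 in 5 of 9 pairs, and 11 of 18 libraries correlated best with their own number. Over all groups, 33 of 45 same-number pairs were above 0.1. With the replicate block the counts were 57 higher and 39 lower with MI-2-2 in MLL-AF9 cells, 43 and 49 in MLL-AF6 cells, and 41 and 31 in MLL-AF1p cells, with 81 members differing between constructs and 153 calls on named members. The block added MI-2-2 calls for Slc6a6 (adjusted p = 0.00679) and Slc32a1 (0.00398) in MLL-AF9 cells and for Slc6a12 (0.0114), Slc1a4 (0.0038) and Slc6a13 (0.0131) in MLL-AF6 cells, among others. Under DMSO the block gave 38 higher and 43 lower in MLL-AF9 than MLL-AF6 cells, 58 and 37 in MLL-AF9 than MLL-AF1p cells, and 52 and 27 in MLL-AF6 than MLL-AF1p cells. Depth limits the low members: Slc15a3, Slc9a7 and Slc15a2 had few or no reads in some groups.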

Other observations

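Libraries of the same number resembled each other in the solute carrier genes across constructs. With DMSO, library 2 was the lowest of its group in all 3 constructs for 31 members (21.5%), against 14.2% of all genes tested, and the highest for 24 members (16.7%), against 13.9%. Library 3 was neither the lowest nor the highest in all 3 constructs for any member, against 0.552% and 0.712% of all genes. Members with library 2 lowest included Slc6a12, Slc6a13, Slc6a6, Slc2a6 and Slc36a1, and those with library 2 highest included Slc1a4 and Slc1a5.

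Slc6a12 showed the widest gap of these. It had 25.6, 3.66 and 21.6 RPKM in the MI-2-2 libraries of MLL-AF9 cells and 19.9, 1.18 and 2.52 RPKM in their DMSO libraries. With MI-2-2, library 2 was the lowest in all 3 constructs for 39 members (27.1%), against 13.7% of all genes, among them Slc15a3, Slc6a8, Slc31a2 and Slc2a6. The labels do not say what a replicate number stands for.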
